A study of Mus musculus with 2 samples.

Results

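Expression of 9 biliary, progenitor and fetal liver markers was examined in the regenerating mouse liver. The genes were taken by symbol from the 34745 genes listed and are *Krt7*, *Krt8*, *Krt18*, *Krt19*, *Epcam*, *Cd24a*, *Sox9*, *Afp* and *Gpc3*. Male mice with a miR-182-5p knockout (KO) and wild-type (WT) mice, both 8 to 10 weeks old, underwent 2/3 partial hepatectomy (PH), and liver RNA was taken at day 3 after PH. The KO mice carry the knockout on a single allele in every cell of the body, so that neither the liver nor a liver cell type was targeted alone. Each genotype was represented by 1 library of poly(A) RNA from liver tissue, and the number of mice behind each library is not stated in the sources used here. KO and WT below stand for these libraries, and gene coordinates are those of the deposited table, on GRCm38. The comparison addressed whether these markers differed between regenerating livers with and without the full dose of miR-182-5p.

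Hepatocytes and bile duct cells (cholangiocytes) arise from a common fetal progenitor. Keratins form filaments from a type I and a type II partner. Adult hepatocytes build theirs from *Krt18* and *Krt8*, and cholangiocytes add *Krt19* and *Krt7*. *Epcam* and *Cd24a* encode surface proteins of duct and progenitor cells, and *Sox9* encodes a transcription factor of the ductal fate. *Afp*, a serum protein related to albumin, and *Gpc3*, a cell-surface heparan sulfate proteoglycan, are abundant in fetal liver and are silenced after birth. Both can return in injured liver and in liver tumors. In bulk RNA, fewer cells of a type and less RNA per cell cannot be told apart.

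Total counts were 13247497 in KO and 13163348 in WT. The 13 mitochondrially encoded protein genes held 51.7% of them in KO and 31.0% in WT. The libraries were scaled by TMM, a method that limits the weight of the most abundant genes, and levels are given as CPM, the counts relative to the scaled library size. Scaling by total counts moved the median log2 fold change of all tested genes from 0.00 to -0.60, and values under that scaling are given beside the gene lists. *Mir182* was not analysed here, so the genotype was not checked on the targeted gene. Hepatocyte genes were present at high levels in both libraries. *Alb* had 339876 counts in KO and 536544 in WT, a log2 fold change of -0.07, and *Apoa1* had 115022 and 148641 (0.22). Of 8 hepatocyte genes, 1 was past 2-fold by TMM, *Apob* (1517 counts in KO and 17808 in WT, log2 fold change -2.96), and 3 were lower past 2-fold with total counts, with *Trf* (-1.47) and *Cps1* (-1.23). With 1 library per genotype no replicate error could be measured and no test of the genotypes was possible. Brackets after a log2 fold change give its exact 95% binomial interval, which covers counting error only and compares these libraries, not the genotypes.

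The 9 markers had no common direction. *Krt19*, *Krt7* and *Gpc3* were higher past 2-fold in the KO library, *Krt8* was lower past 2-fold, and the other 5 markers lay within 2-fold. All 9 markers passed the filter of at least 10 counts over both libraries. Of the 13561 genes that passed it, 1283 (9.46%) were higher past 2-fold in KO and 1348 (9.94%) were lower. With total counts, 624 genes (4.6%) were higher and 3605 (26.6%) were lower, and among the markers 2 were higher (*Krt7* and *Krt19*) and 2 were lower (*Krt8* and *Krt18*). The markers' median log2 fold change was 0.14 by TMM, beside 0.00 for all tested genes, and turned to -0.44 with total counts, beside -0.60. Counting intervals lay wholly past 2-fold for *Krt8* and *Krt19*, and those of *Epcam*, *Sox9* and *Cd24a* included 0.

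**Figure D1:**
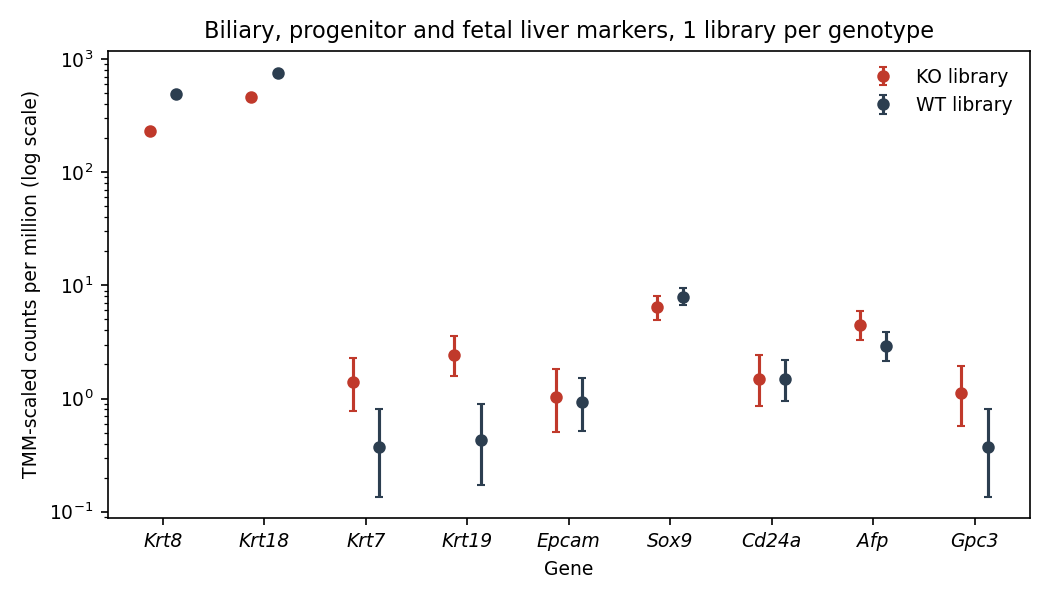
Level of each marker in the KO (red) and WT (dark blue) library, as TMM-scaled CPM on a log axis; points are single libraries and bars are exact 95% counting intervals. *Krt8* and *Krt18* stand above the other markers in both libraries, and the KO and WT intervals are apart for *Krt8*, *Krt18* and *Krt19*.

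Depth limited the rare markers. *Krt7*, *Krt19*, *Epcam*, *Cd24a* and *Gpc3* had 18 to 40 counts over both libraries. Among the 1391 genes with counts in that range, 309 (22.2%) were higher past 2-fold in KO and 275 (19.8%) were lower, with a median log2 fold change of 0.10. Of the 5 markers in that range, 3 were higher and 0 were lower. *Krt8* and *Krt18* together took 97.4% of the markers' 7681 counts in KO and 98.9% of the 20410 in WT.

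**Figure D2:**
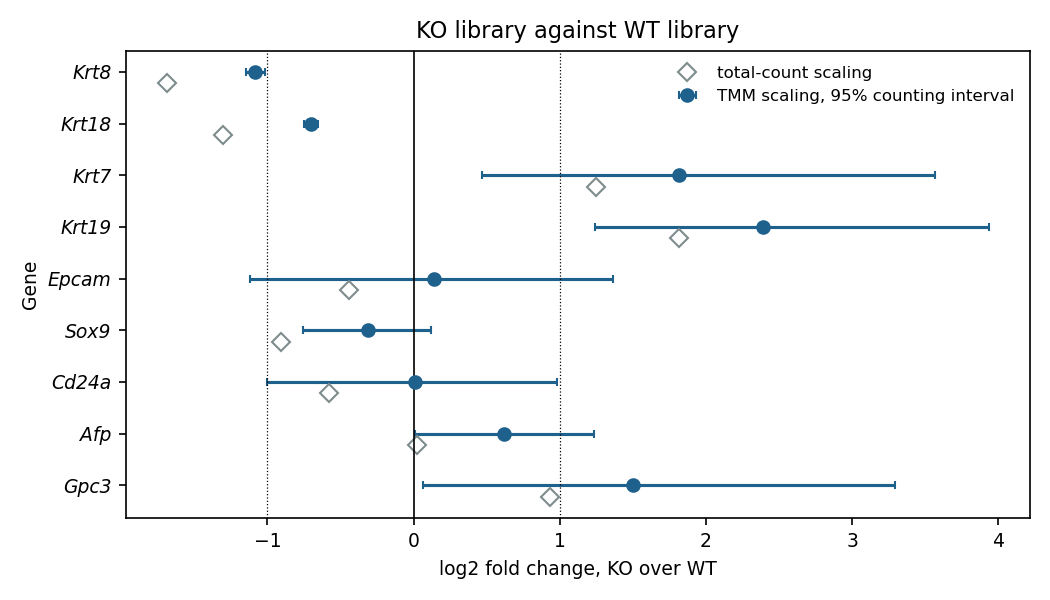
Log2 fold change of each marker, KO over WT, with exact 95% counting intervals (filled, TMM scaling) and with total-count scaling (open diamonds); dotted lines mark 2-fold. Total-count scaling shifts every marker to the left and moves *Krt18* past 2-fold, while *Gpc3* comes to lie within it.

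The keratins shared by hepatocytes and bile ducts were lower in the KO library. *Krt8*, the type II partner (ENSMUSG00000049382, chr15:101996711-102004342, minus strand), had 2475 counts in KO and 7907 in WT. These counts correspond to 230.1 and 488 CPM, a 2.12-fold lower level in the KO library (log2 fold change -1.08 [-1.15 to -1.02]). *Krt18*, its type I partner, lies 23873 bases away on the plus strand (ENSMUSG00000023043, chr15:102028216-102032026). It had 5009 counts in KO and 12269 in WT, or 466 and 757 CPM. The KO level of *Krt18* was 1.62-fold lower, within 2-fold by TMM (log2 fold change -0.70 [-0.75 to -0.65]) and past it with total counts (-1.30). The counting intervals of the libraries did not overlap for either gene.

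The proportion of the partners differed as well. *Krt8* took 33.1% of the *Krt8* and *Krt18* reads in the KO library (exact 95% interval 32.0% to 34.1%) and 39.2% in WT (38.5% to 39.9%), a share that does not depend on the scaling of the libraries. The ratio of *Krt8* to *Krt18* reads was thus lower in the KO library by 0.38 on the log2 scale (-0.38 [-0.46 to -0.30], Wald interval). Per length, in the authors' FPKM, *Krt18* stood 2.61-fold above *Krt8* in KO and 2.00-fold above it in WT. Relative to *Alb*, which also needs no scaling, *Krt8* was lower in the KO library by a log2 ratio of -1.02 [-1.08 to -0.95] and *Krt18* by -0.63 [-0.68 to -0.59]. The difference of these hepatocyte keratins was therefore also seen against *Alb*, the main hepatocyte secretory transcript, but not against every hepatocyte gene. By TMM, 4 of the 8 hepatocyte genes lay above 0 and 4 below it, with *Alb* among the latter. The others below 0 were *Apob* (log2 fold change -2.96), *Trf* (-0.87) and *Cps1* (-0.63). *Krt18* was thus lower by less than *Apob* and *Trf* and by about as much as *Cps1*. *Krt8* was lower by more than *Trf* and *Cps1* but by less than *Apob*. Of the 51-base words of the *Krt8* transcript, 26.7% also occur in *Krt8-ps*, a processed pseudogene that is not among the listed genes, so part of the *Krt8* reads could have been placed elsewhere. An antisense gene that is not listed, *Gm36026*, covers 5.16% of the exon bases of *Krt8*, and the strand of counting is not stated. Whether these copies touch the *Krt8* count was not tested.

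The duct keratins were higher in the KO library, from few reads. *Krt19*, the type I keratin of cholangiocytes (ENSMUSG00000020911, chr11:100140810-100148665, minus strand), had 26 counts in KO and 7 in WT, 2.42 and 0.432 CPM. Its KO level was 5.24-fold higher (log2 fold change 2.39 [1.24 to 3.93]), and it stayed past 2-fold with total counts (1.81). *Krt7*, its type II counterpart in bile ducts (ENSMUSG00000023039, chr15:101411043-101430313, plus strand), had 15 counts in KO and 6 in WT, 1.39 and 0.370 CPM. Its KO level was 3.52-fold higher (1.81 [0.47 to 3.57]), and with total counts the value was 1.25. The counting intervals of the libraries were apart for *Krt19* and overlapped slightly for *Krt7*. The antisense gene *Gm671*, which is not listed, covers 1.09% of the exon bases of *Krt7*. Among the reads of these 4 keratins, *Krt7* and *Krt19* together made up 41 of 7525 in the KO library (0.545%, 0.391% to 0.738%) and 13 of 20189 in WT (0.0644%, 0.0343% to 0.110%). The ratio of *Krt7* and *Krt19* reads to *Krt8* and *Krt18* reads was higher in the KO library by 3.09 on the log2 scale [2.19 to 3.99, Wald interval]. This ratio needs no scaling. Both duct keratins were thus higher where the hepatocyte keratins were lower, from 41 reads in KO and 13 in WT.

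**Figure D3:**
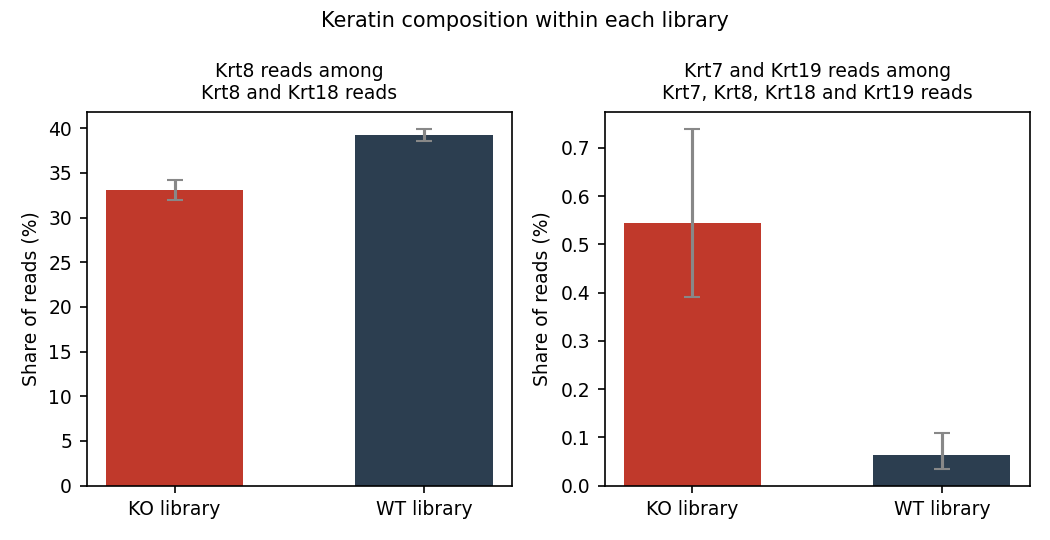
Share of reads within each library, in percent, from 0; bars are single libraries and whiskers exact 95% counting intervals. Left, *Krt8* among *Krt8* and *Krt18* reads (33.1% KO, 39.2% WT). Right, *Krt7* and *Krt19* among the reads of the 4 keratins (0.545% KO, 0.0644% WT).

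Mesothelial cells of the liver surface also express simple keratins. The 7 mesothelial genes summed to 37 counts in KO and 4 in WT, 3.44 and 0.247 CPM (log2 ratio 3.80 [2.32 to 5.75]). *Msln*, the mesothelial surface antigen mesothelin, had 17 counts in KO and 0 in WT, which is at least 8.54-fold higher against a floor of 3 counts. *Gpm6a*, a membrane glycoprotein, had 10 and 0 counts, at least 5.03-fold higher. *Msln* and *Gpm6a* passed the filter through the KO library alone, and the other 5 genes were below it. *Upk1b* had 8 and 0 counts. The defining genes *Wt1* and *Muc16* had 0 counts in both libraries, *Upk3b* had 1 in each, and *Lrrn4* had 1 in KO and 3 in WT. The part of these cells in the *Krt7* and *Krt19* counts was not tested.

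*Krt7* was also the only marker whose longest annotated 3′ UTR holds a match to the miR-182-5p seed. A miRNA pairs with its targets mainly through its seed, bases 2 to 8. The mature miRNA (RefSeq, GRCm38.p6, chr6:30165962-30165986, minus strand) is shown with the seed in capitals, above the stretch of the *Krt7* 3′ UTR (GRCm38, chr15:101428623-101428652, plus strand) with the complementary TTGCCAA in capitals.
miR-182-5p: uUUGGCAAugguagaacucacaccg
Krt7 3′ UTR: ggatggggacaTTGCCAAggacatgttgac
The match begins at base 969 of a 3′ UTR of 2648 bases and is not followed by the A that would make an 8-base match. The longest annotated 3′ UTRs of the other 8 markers, 66 bases in *Krt18* to 2250 bases in *Sox9*, hold no match to bases 2 to 7 of the miRNA. Shorter or shifted matches were not searched. A match of 7 or 8 bases is present in 21.7% of the 12541 tested genes with an annotated 3′ UTR, so that a match in 1 of 9 markers is not more than that share. Binding at this site was not measured, and a match is not a site shown to act.

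Other keratins were nearly absent. Of 47 keratin genes listed, 38 had no count in either library. *Krt23* (12 counts in KO and 27 in WT), *Krt10* (10 and 31) and *Krt222* (0 and 13) were the only tested keratins beside the markers. *Krt10* had a log2 fold change of -1.01 [-2.23 to 0.03], and *Krt222* was at least 2.87-fold lower in the KO library. *Krt222* passed the filter through the WT library alone.

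The surface markers of ducts and progenitors did not differ detectably at this depth. *Epcam*, an adhesion molecule of cholangiocytes (ENSMUSG00000045394, chr17:87635979-87651106, plus strand), had 11 counts in KO and 15 in WT, 1.02 and 0.925 CPM. Its log2 fold change was 0.14 [-1.12 to 1.37], an interval that holds a 2-fold difference in either direction. *Cd24a*, a heavily glycosylated surface protein (ENSMUSG00000047139, chr10:43579169-43584262, plus strand), had 16 and 24 counts, 1.49 CPM in KO and 1.48 in WT. Its log2 fold change was 0.01 [-1.0 to 0.98]. With total counts these values were -0.44 for *Epcam* and -0.58 for *Cd24a*, close to the -0.60 of all tested genes. *Epcam* and *Cd24a* levels overlapped between the libraries. The transcript of *Cd24a* shares 3.79% of its words with pseudogenes, mainly *Gm6212*, which is not listed.

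*Cd24a* is also known from blood cells, whose markers were present at low levels. The 4 B cell genes summed to 29 counts in KO and 34 in WT, with *Cd79a* higher past 2-fold in the KO library (12 and 4 counts) and *Cd79b* within it (8 and 11). Of the 3 tested, 1 was higher and 0 lower past 2-fold by TMM, against 1 and 1 with total counts. The 8 neutrophil genes summed to 383 and 532 counts, 35.6 and 32.8 CPM, and 0 of the 5 tested were past 2-fold under either scaling. The alarmins *S100a9* (189 and 256 counts) and *S100a8* (142 and 214) were the most abundant, *Ly6g* was at 0 in both, and *Mpo* had 0 and 1. The 8 erythroid genes summed to 926 and 1335 counts, 86.1 and 82.3 CPM, and 1 was higher and 1 lower past 2-fold by TMM, against 0 and 4 with total counts. *Alas2*, the erythroid enzyme of heme synthesis, was higher past 2-fold in the KO library by TMM (535 and 347 counts, within 2-fold with total counts at 0.61) and *Hbb-bs*, a beta globin, was lower (64 and 200). The alpha globins *Hba-a1* (188 and 419 counts) and *Hba-a2* (89 and 257) lay within 2-fold by TMM and past it with total counts (-1.16 and -1.53), and the split of reads between copies of a globin gene is uncertain. Summed, the 4 globin genes had 376 counts in KO and 956 in WT (log2 ratio -0.75 [-0.93 to -0.58]), so that *Alas2* and the globins differed in opposite directions by TMM. *Cd24a* was at a like TMM-scaled level in both libraries, and the part of blood cells in the *Cd24a* counts was not tested.

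*Sox9*, the ductal transcription factor (ENSMUSG00000000567, chr11:112782224-112787760, plus strand), was the most abundant marker per length after *Krt18* and *Krt8*. It had 69 counts in KO and 129 in WT, 6.42 and 7.96 CPM. Its log2 fold change was -0.31 [-0.75 to 0.12] by TMM and -0.91 with total counts, within 2-fold under both. The intervals of the libraries overlapped. Summed over *Epcam*, *Krt7*, *Krt19*, *Sox9* and *Cd24a*, the duct and progenitor markers had 137 counts in KO and 181 in WT, a log2 ratio of 0.19 [-0.14 to 0.52]. *Sox9* supplied most of these reads in both libraries, and *Krt7* and *Krt19* the fewest in WT.

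*Afp* was present at low levels in both libraries. It had 48 counts in KO and 47 in WT (ENSMUSG00000054932, chr5:90490737-90508907, plus strand), 4.46 and 2.90 CPM. Its log2 fold change was 0.62 [0.01 to 1.23] by TMM, with an interval whose lower end lies at no difference, and 0.02 with total counts. *Afp* stands between its relatives *Alb*, 14134 bases away, and *Afm*, 10024 bases away, which had log2 fold changes of -0.07 and 0.16. *Gc*, a more distant relative, had -0.14. Relative to *Alb*, *Afp* was higher in the KO library by 0.69 on the log2 scale [0.11 to 1.27]. Its reads were 0.0141% of the *Afp* and *Alb* reads in KO and 0.00876% in WT. The *Afp* difference was thus within 2-fold, its size depended on the scaling, and the counting intervals of its levels overlapped.

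*Gpc3*, which binds growth factors and hedgehog ligands at the cell surface, was higher past 2-fold in the KO library from few reads. It had 12 counts in KO and 6 in WT (ENSMUSG00000055653, chrX:52272426-52613950, minus strand), 1.12 and 0.370 CPM. The fold was 2.83 (log2 fold change 1.50 [0.07 to 3.29]), and with total counts the value was 0.93, within 2-fold. Its neighbour and relative *Gpc4*, 107173 bases away, had 194 and 440 counts (log2 fold change -0.59 [-0.84 to -0.34], -1.19 with total counts). *Gpc3* made up 5.83% of the *Gpc3* and *Gpc4* reads in the KO library (3.05% to 9.95%) and 1.35% in WT (0.495% to 2.91%). The ratio of *Gpc3* to *Gpc4* reads was higher in the KO library by 2.18 on the log2 scale [0.75 to 3.62, Wald interval]. The proportion of these glypicans thus differed whatever the scaling, although the intervals of the *Gpc3* levels overlapped.

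The order of the markers per length was nearly the same in both libraries. In the authors' FPKM, *Krt18* came first (270.1 in KO and 666 in WT), followed by *Krt8* (104 and 333) and *Sox9* (1.26 and 2.37). *Krt18* held place 97 among all genes in KO and place 70 in WT. *Krt8* held places 220 and 124. The other 6 markers were at 1.01 FPKM or below, with *Krt7* last in both libraries (0.132 and 0.0530). *Krt19* held place 5 of 9 in the KO library (0.841 FPKM) and place 7 in WT (0.228). In the KO library, neighbours below *Sox9* did not differ beyond their counting intervals, nor did *Sox9* and *Afp*. In the WT library, *Sox9* and *Cd24a* (1.01 FPKM) were apart, and the neighbours below did not differ. FPKM values are scaled by total counts and are compared here between genes of a library.

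Other genes of cholangiocytes had no common direction either. Of 20 such genes, 13 were tested, 4 were higher past 2-fold in KO and 3 were lower, against 3 and 5 with total counts. Their median log2 fold change was 0.32 by TMM and -0.27 with total counts, and their summed level was 296 CPM in KO and 303 in WT. *Muc1*, an apical mucin, had 43 counts in KO and 10 in WT (log2 fold change 2.63 [1.68 to 3.85]). *Onecut1*, a transcription factor of biliary development, had 182 and 67 counts (2.02 [1.62 to 2.46]). It shares 52.8% of its exon bases with *Gm20649*, which had 1 and 0 counts. The epithelial transcription factor *Ehf* had 14 and 6 counts (1.72), and *Dcdc2a*, a protein of the cholangiocyte cilium, had 53 and 36 (1.14, within 2-fold with total counts at 0.54). Lower past 2-fold were *Prom1*, a progenitor surface protein (8 and 105 counts, -3.06 [-4.37 to -2.09]), and *Elf3*, an epithelial transcription factor (11 and 52, -1.61). *Onecut2*, a relative of *Onecut1*, was lower past 2-fold as well (354 and 1285, -1.27 [-1.44 to -1.10]). Counting intervals lay wholly past 2-fold for *Muc1* and *Onecut1* (higher, like *Krt19*) and for *Prom1* and *Onecut2* (lower). The most abundant genes per length were *Spp1*, the secreted matrix protein osteopontin (log2 fold change 0.40 [0.30 to 0.49], -0.20 with total counts), and *Cdh1*, E-cadherin (-0.42 [-0.59 to -0.25], -1.02 with total counts). Both lay within 2-fold by TMM. *Cftr* and *Cldn4* had 2 counts or fewer in each library.

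**Figure D4:**
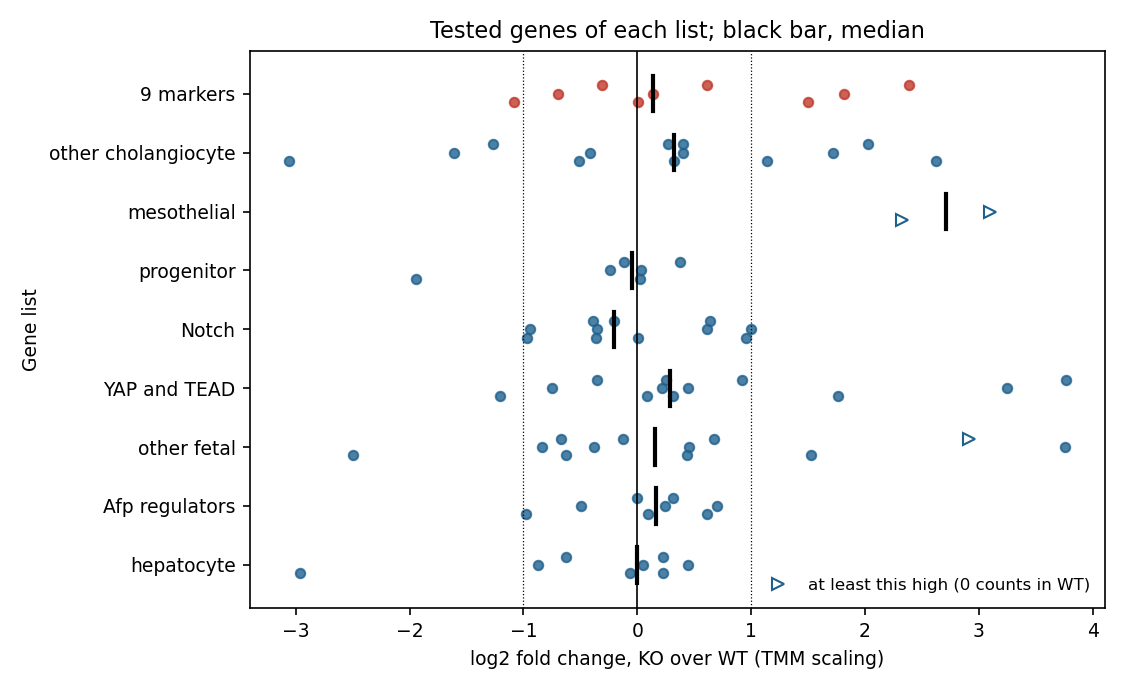
Log2 fold change, KO over WT (TMM), of the tested genes of each group, with the 9 markers in red; black bars are medians, dotted lines mark 2-fold and open triangles are lower bounds for genes with 0 counts in WT. Medians lie between -0.21 and 0.32 for each group shown except the 2 tested mesothelial genes, and single genes reach past 2-fold in both directions.

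Progenitor genes gave no common direction. Of 8 such genes, 6 were tested and 1 was past 2-fold under either scaling. This was *Tnfrsf12a*, the receptor through which the cytokine TWEAK drives progenitor growth, with 79 counts in KO and 461 in WT (log2 fold change -1.95 [-2.32 to -1.61]). The gene of its ligand, *Tnfsf12*, had 130 and 193 counts (0.02 [-0.31 to 0.35]). The *Tnfsf12* transcript shares 49.0% of its words with *Tnfsfm13*, which had 0 and 12 counts, so the *Tnfsf12* count is uncertain. *Foxl1* was at 0 in both libraries. The median of the progenitor genes was -0.05, or -0.64 with total counts.

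Notch and YAP signaling act upstream of *Sox9* in biliary cells. Of 13 Notch pathway genes, 11 were tested, and the intervals of 9 included 0. Of the 11, only *Notch3* was past 2-fold by TMM (15 and 11 counts, 1.00 [-0.18 to 2.31]), and with total counts it was within 2-fold (0.42) while 2 others, *Notch4* (-1.50) and *Heyl* (-1.55), were lower past it. The most abundant per length were the receptors *Notch1* (167 and 330 counts, -0.39 [-0.67 to -0.12]) and *Notch2* (174 and 303 counts, -0.21). *Hey1*, a Notch target, had 3 counts in KO and 2 in WT. The ligand gene *Jag1* had 70 and 69 counts (0.61 [0.11 to 1.11], 0.01 with total counts), so the intervals of *Notch1* and *Jag1* excluded 0 in opposite directions. The Notch genes had a median of -0.21, or -0.81 with total counts, beside -0.31 and -0.91 for *Sox9*. A link between the Notch genes and *Sox9* was not tested.

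All 12 genes of the YAP group were tested, and 3 were higher and 1 lower past 2-fold, against 3 and 2 with total counts. *Yap1*, the transcriptional coactivator itself, had 438 counts in KO and 48 in WT (log2 fold change 3.77 [3.35 to 4.24]). *Ankrd1*, a YAP target, had 16 and 2 counts (3.25 [1.50 to 6.76]). *Lats1*, a kinase that inhibits YAP, had 174 and 77 (1.76 [1.37 to 2.17]), and *Tead2*, a DNA-binding partner, had 9 and 32 (-1.20 [-2.49 to -0.14]). The classical targets *Cyr61* (0.32 [-0.13 to 0.76]) and *Ctgf* (0.08 [-0.55 to 0.71]) had intervals that include 0. Another target, *Amotl2*, had 78 and 62 counts (0.92 [0.42 to 1.43]), and *Tead3*, a further DNA-binding partner, had 173 and 191 (0.45). By TMM, *Yap1*, *Ankrd1*, *Amotl2*, *Tead3* and the inhibitor *Lats1* were thus higher in the KO library beyond counting error, and *Tead2* was lower. The intervals of *Sox9*, *Cyr61* and *Ctgf* included 0. *Ankrd1* passed the filter through the KO library alone.

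Other fetal genes lay on both sides of 0. Of 15 fetal and imprinted growth genes, 12 were tested, 3 were higher and 1 was lower past 2-fold, against 2 and 4 with total counts. Their median was 0.15, or -0.43 with total counts. *Igf2*, the fetal growth factor, had 32 counts in KO and 3 in WT (log2 fold change 3.76 [2.33 to 6.36]). Its transcript shares 75.9% of its words with *Gm49394*, which is not listed, so the *Igf2* count is uncertain. *Hmga2*, a chromatin protein of fetal growth, had 15 and 0 counts, at least 7.54-fold higher in the KO library. *Hmga2* and *Igf2* passed the filter through the KO library alone. *Meg3*, an imprinted long noncoding RNA, had 336 and 175 counts (1.53 [1.27 to 1.81], 0.93 with total counts). *Spink1*, a trypsin inhibitor, had 12 and 105 counts (-2.50 [-3.53 to -1.67]) and was the most abundant per length. The imprinted gene *Peg3* had 207 and 227 counts (0.46). *Igf2bp1*, *Lin28b* and *Dlk1* had 3 counts or fewer in each library.

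The regulators of *Afp* lay within 2-fold by TMM. Of 8 transcription factors known to act on *Afp* in liver, all were tested and 0 were past 2-fold, against 2 lower with total counts. Their median was 0.17, or -0.43 with total counts. *Zhx2*, a postnatal repressor of *Afp*, *Gpc3* and *H19*, had 15 counts in KO and 45 in WT (-0.97 [-1.94 to -0.12], past 2-fold with total counts at -1.56). Of the genes that *Zhx2* acts on, *Gpc3* was higher in the KO library as above, *Afp* had 0.62, and *H19* had 18 and 49 counts (-0.84 [-1.72 to -0.05]). *Zbtb20*, another repressor of *Afp*, had 3603 and 3338 counts (0.70 [0.63 to 0.77], 0.10 with total counts). *Foxa3*, an activator, had a log2 fold change of 0.09.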

How the data were processed

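Sequencing of liver poly(A) RNA was done on Illumina HiSeq instruments, with 1 KO and 1 WT library. The authors deposited raw read counts per gene and the FPKM computed from them. The submitters' processing notes name HISAT2 2.0.4, StringTie, edgeR and the human build hg38, while the gene identifiers and coordinates in the deposited table are of mouse. Of 34745 identifiers, 34344 are in GENCODE M21 (GRCm38), 80.9% of them with the same coordinates. The counting strand is not given in the sources used here.

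Scaling used edgeR 4.0.16 and DESeq2 1.42.0 under R 4.3.3. Intervals, lists and sequences were computed under Python 3.11.15 (scipy 1.17.1, numpy 2.4.6, pandas 2.3.3), and matplotlib 3.10.9 drew the plots. Genes whose counts over both libraries reached 10 were tested, libraries were scaled by TMM over the whole table (factors 0.812 for KO and 1.23 for WT), and log2 fold changes were taken with a prior count of 0.5. Differences of 2-fold or more were called. A gene could pass the minimum of 10 counts through the library in which it was high alone. Beside the genes marked above, *Ehf*, *Evpl* and *Cd79a* did so through KO, and *Prom1* and *Tead2* through WT. Intervals are exact 95% binomial (Clopper-Pearson) intervals, and Wald intervals for ratios of ratios. PCR reads are not independent molecules, so intervals and the floor of 3 counts cover counting error only. The steps were tested on simulated data.

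The markers and the 14 other gene lists were chosen with earlier results of these data known. All markers are named. From each list, genes past 2-fold whose interval excludes 0, the 2 with the highest FPKM and defining genes at 3 counts or fewer were to be named, beside genomic neighbours and sequence copies. *Notch3*, *Notch4*, *Jag1*, *Heyl*, *Ctgf*, *Amotl2*, *Trf*, *Cps1*, *Zhx2* and *H19* lie outside this rule and were named after their values were seen, as were the keratins that are no markers. Some list genes are not reported here. Alternatives were scaling by total counts, total counts without the 13 mitochondrial genes, DESeq2 size factors and the upper quartile, the FPKM of the authors after adding a pseudocount of 0.1, a prior count of 5, minimums of 1 and 50 counts, an adjusted exact binomial test, and edgeR's exact test with an assumed coefficient of variation of 0.2 or 0.4. The genes' 3′ UTRs were the longest annotated in GENCODE M21, and shared sequence was measured in words of 51 bases.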

Additional observations from a re-analysis of the deposited data

How the results depend on the processing

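No paired analysis was possible because KO and WT have 1 library each, and for that reason no replicate could be left out. *Krt7*, *Krt8*, *Krt19* and *Gpc3* kept their sign under each alternative in which their fold was recomputed. With total counts 2 markers and 3605 of all genes were lower past 2-fold, and 2 markers and 624 genes were higher. With the authors' FPKM and a pseudocount of 0.1, 1 marker and 405 genes were higher and 2 markers and 2934 genes lower. Of the genes past 2-fold, 51.2% were lower by TMM and 85.2% with total counts. A minimum of 1 count gave 2269 genes higher and 2763 lower. A minimum of 50 counts gave 656 and 730, and 0 markers higher, since 5 of the 9 markers have fewer counts. With edgeR's exact test and an assumed coefficient of variation of 0.2, 1 marker (*Krt19*) was higher and 0 were lower, against 488 and 444 of all genes. With 0.4, 0 markers were called in either direction, against 59 and 58 genes. Total counts without the mitochondrial genes, DESeq2 size factors, the upper quartile and a prior count of 5 left 3 markers higher and 1 lower. In the same order, these gave 1147, 1266, 1294 and 1016 of all genes higher and 1525, 1356, 1329 and 1047 lower. The adjusted exact binomial test left 2 markers higher, without *Gpc3*, and 1 lower, against 1081 and 1128 of all genes. Of 67 marker folds recomputed, 59 lay within their counting interval, and the 8 outside it belong to *Krt8*, *Krt18* and *Sox9* under total counts, total counts without mitochondrial genes or FPKM. Of the 67 folds, 6 lay on the other side of 0 from TMM, all of *Epcam* or *Cd24a*. The markers' median was -0.44 with total counts, -0.38 with FPKM and -0.49 with a minimum of 50 counts. Depth limits *Krt7*, *Krt19*, *Epcam*, *Cd24a* and *Gpc3*, which have 18 to 40 counts in all.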

Other observations

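In the KO and WT libraries, the genes that anchor simple keratins to the cell border mostly lay within 2-fold by TMM while *Krt8* was lower. Of 8 desmosome and linker genes, all were tested, and 1 was higher and 1 lower past 2-fold in KO, against 0 and 2 with total counts. Their median log2 fold change was -0.18, or -0.78 with total counts. *Dsc2*, a desmosomal cadherin, had 23 counts in KO and 329 in WT (log2 fold change -3.22 [-3.92 to -2.64]). *Evpl*, which encodes the linker envoplakin, had 14 and 7 counts (1.51 [0.19 to 3.14], 0.94 with total counts). The most abundant per length were *Ppl*, periplakin (453 and 910 counts, -0.41 [-0.58 to -0.25], -1.01 with total counts), and *Pkp2*, plakophilin 2 (501 and 713 counts, 0.08 [-0.08 to 0.25]).

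Of the 5 glypicans other than *Gpc3*, 4 were tested and 0 were past 2-fold by TMM, against 2 lower with total counts (*Gpc4* at -1.19 and *Gpc1* at -1.31). Their median was -0.19, or -0.79 with total counts. *Gpc4* and *Gpc1* were the most abundant per length, and *Gpc1* had 18 counts in KO and 45 in WT (-0.72 [-1.61 to 0.09]). *Gpc5* was at 0 in both libraries.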
